A study of Bos taurus with 12 samples.

Results

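The genes described here set the balance between phosphate, which builds mineral, and pyrophosphate and matrix proteins, which hold mineral back. They were taken as all probe sets whose platform gene symbol is ALPL, ANKH, ENPP1, PHOSPHO1, NT5E, MGP, ANXA2, ANXA5, ANXA6 or SMPD3. Of these 10 genes, 9 were found, on 18 of 24016 probe sets (control probe sets left out) that name 9155 genes in all. No probe set carried the symbol PHOSPHO1, which was not analysed here.

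In growth plate cartilage, enlarged chondrocytes release matrix vesicles in which calcium phosphate crystals begin to form. Pyrophosphate, which ENPP1 makes from nucleotides outside the cell and ANKH helps cells to release, blocks crystal growth, and the phosphatase ALPL cleaves it into phosphate. MGP is a small matrix protein, carboxylated with vitamin K, that keeps cartilage and arteries from mineralising, and annexins bind calcium and membrane lipid in the vesicles.

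RNA came from chondrocytes of the distal metacarpal growth plate of male dairy cattle aged under 10 months. After collagenase P had released the cells over 4 hours they were parted by density, and the lightest fraction was taken as hypertrophic zone (HZ) and the heaviest as reserve zone (RZ). There were 12 arrays, 6 of HZ and 6 of RZ, in pairs numbered 1 to 6. The description calls the pairs independent and does not say how many animals each held, so the p-values below measure only how these pairs varied, and the number of arrays limits their precision.

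The labelled zones were checked by marker genes. Of 6 measured hypertrophic markers 4 were higher in HZ and 0 lower, with a median difference between 0.76 and 1.36 (log2) in each pair. COL10A1, the collagen that defines hypertrophy, averaged 21619 ± 4513 in HZ against 20146 ± 4698 in RZ (signal, SD, n = 6 each) and did not pass. Of 5 reserve zone markers 4 were lower in HZ. Markers of other cells also moved, with 4 of 6 macrophage genes, 2 of 4 osteoclast genes and 1 of 5 bone-forming cell genes higher in HZ, and 1 of 6 granulocyte, 1 of 6 endothelial and 1 of 6 fibroblast genes lower. The osteoclast signals summed to 7126 to 10039 in HZ and 2301 to 5717 in RZ. Most of that sum was CTSK (mean 6683 in HZ and 2522 in RZ) and ACP5 (1734 and 761). The macrophage signals summed to 1341 to 2846 (median 1626) in HZ and 969 to 2086 (median 1624) in RZ, and those of bone-forming cells to 1366 to 4805 in HZ and 1487 to 17916 in RZ. No marker was at 0 on any array, and the part of these cells in the results below was not tested. The 3′ to 5′ log2 ratio of actin, a sign of RNA quality, averaged 3.03 ± 0.685 in HZ and 2.34 ± 0.453 in RZ (SD, n = 6) with the HZ array above its partner 5 times of 6 (two-sided exact permutation test of the pair signs, p = 0.0625). That of GAPDH averaged 0.519 ± 0.651 in HZ and 0.103 ± 0.285 in RZ (exact p = 0.125), and the part of RNA quality in the results was not tested. Pairs 1 and 2 also stood apart from pairs 3 to 6 in their unscaled array medians (41.5 to 55.6 against 119.5 to 149.0), and differences are given for these 2 sets of pairs where they bear on a result.

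The question asked of each gene was whether its RNA differed between the lightest (HZ) and heaviest (RZ) cell fractions. ALPL and MGP rose in HZ and ANKH fell, while ENPP1, NT5E, SMPD3 and the annexins ANXA2, ANXA5 and ANXA6 did not pass. The 3 changes were of a like size, 1.66-fold and 1.68-fold higher for ALPL and MGP and 1.74-fold lower for ANKH. A gene counted as changed when limma, with the pair as a block, gave an adjusted p under 0.05 over all 24016 probe sets at its brightest probe set. By this rule 2 of 9 genes were higher in HZ, against 4.17% of the 9155 named genes, and 1 of 9 was lower, against 3.56%, so that 3 of 9 passed against 7.73%. Counted by probe set, 2 of 18 were higher, against 3.26% of all probe sets, and 2 of 18 lower, against 2.96%, or 4 of 18 against 6.22%. The brightest probe sets of the 9 genes were brighter than 66.8% to 99.9% of all probe sets. The shares over all genes and probe sets are thus not a background of like brightness. A separate fit of the 12008 above the median level gave 1034 higher and 1374 lower. It had its own variance estimates and adjustment, so its counts do not show how the reported calls split by brightness. The median difference was 0.07 over the 9 genes and -0.01 over all named genes. In bulk RNA, fewer cells of a type and less RNA per cell cannot be told apart.

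**Figure D1:**
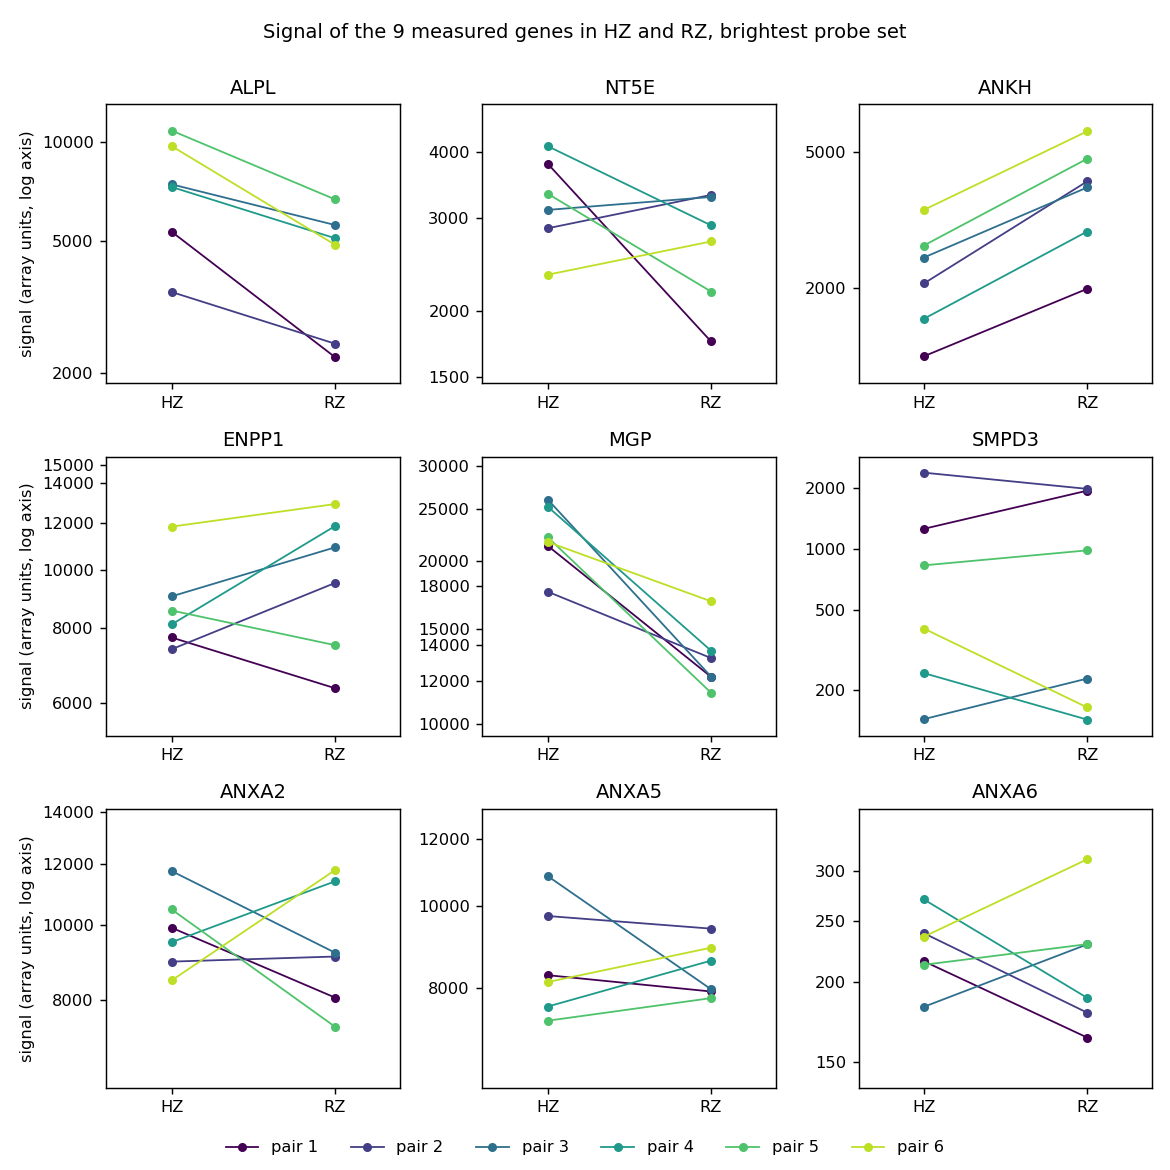
Signal of the brightest probe set of each of the 9 genes (log axis, array units), with HZ left and RZ right in each panel and a line joining the 2 arrays of a pair. On all 6 lines HZ lies above RZ for ALPL and MGP and below it for ANKH, whereas SMPD3 is spread by pair and the lines of the annexins cross.

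ALPL encodes tissue-nonspecific alkaline phosphatase, which sits on the cell and vesicle membrane. At the brighter of its 2 probe sets the HZ arrays of pairs 1 to 6 had signals of 5349, 3513, 7444, 7308, 10829 and 9718, against 2232, 2451, 5606, 5114, 6705 and 4888 on the RZ arrays. HZ was above RZ within each pair, but the zones overlapped, the HZ array of pair 2 lying below the RZ arrays of pairs 3 to 6 and that of pair 1 below the RZ arrays of pairs 3 and 5. The log2 difference was 0.73 ± 0.16 (SE, limma adjusted p = 0.0290), running from 0.41 in pair 3 to 1.26 in pair 1.

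The ALPL call was close to the threshold. Leaving out pair 1, 2, 4, 5 or 6 gave adjusted p-values of 0.0525 to 0.0907, and only the fit without pair 3 still passed (adjusted p = 0.0337). The estimate itself ranged from 0.62 to 0.79 in these 6 fits, with 0.89 for pairs 1 and 2 taken alone, against 0.65 for pairs 3 to 6.

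The dimmer ALPL probe set gave a nearly equal mean difference with a far wider spread. Its signals were 880, 605, 610, 1290, 4059 and 3486 on HZ arrays of pairs 1 to 6, against 263, 263, 1782, 1229, 2758 and 721 on RZ arrays. HZ was the higher in 5 pairs, by up to 2.25 (log2) in pair 6, and pair 3 ran the other way at -1.52. The difference of 0.70 ± 0.41 (SE, adjusted p = 0.362) did not pass. Its size rested on single pairs, at 1.14 without pair 3 and 0.39 without pair 6, and was 1.42 for pairs 1 and 2 alone against 0.34 for pairs 3 to 6. The 2 probe sets had the same sign in 5 of 6 pairs.

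NT5E, the surface enzyme CD73 that turns AMP into adenosine and phosphate, showed no difference that passed. The brighter of its 2 probe sets had signals of 2343 to 4108 (median 3224) in HZ and 1751 to 3320 (median 2808) in RZ. HZ was higher in 3 of 6 pairs and the difference was 0.29 ± 0.20 (SE, adjusted p = 0.462). Pair 1, at 1.11, lay above the other pairs, which ranged up to 0.61. The other probe set had signals of 1214 to 2858 in HZ and 1265 to 2866 in RZ, and its difference was -0.12 ± 0.21 (adjusted p = 0.798). The 2 probe sets had the same sign in 5 of 6 pairs, all but pair 5. As their mean differences had opposite signs and neither passed, no direction can be given for NT5E.

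ANKH, a membrane protein through which cells release pyrophosphate and ATP, was lower in HZ at both of its probe sets. At the brighter one the signals were 1255, 2055, 2450, 1618, 2658 and 3383 on HZ arrays of pairs 1 to 6, against 1982, 4104, 3939, 2922, 4784 and 5760 on RZ arrays. Each HZ array was below its partner while the zones overlapped, since the level itself varied between pairs. The log2 difference was -0.80 ± 0.13 (SE, limma adjusted p = 0.0106), a 1.74-fold fall with a 95% interval of the HZ over RZ ratio from 0.468 to 0.708.

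The size of this fall was very even at the brighter probe set. The 6 pair differences lay between -0.99 and -0.65 with an SD of 0.125. Of the 12008 probe sets brighter than the median, 0.858% had a smaller SD of pair differences. It also passed in all 6 fits with a pair left out, at -0.83 to -0.76 (adjusted p = 0.0196 to 0.0437), with -0.82 for pairs 1 and 2 taken alone, against -0.78 for pairs 3 to 6.

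At the dimmer ANKH probe set signals were 902 to 2410 (median 1662) in HZ and 1745 to 3446 (median 2442) in RZ. HZ was again lower in 6 of 6 pairs, by 0.26 to 0.94 on the log2 scale (SD of the pair differences 0.252). The pair differences of the 2 probe sets did not run together (r = -0.144 over 6 pairs). The difference of -0.61 ± 0.15 (SE, adjusted p = 0.0409) passed, but with a pair left out it passed in 1 of the 6 fits.

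ENPP1, the enzyme that cleaves ATP to give pyrophosphate outside the cell, did not pass. Its only probe set had signals of 7720, 7379, 9046, 8119, 8566 and 11833 on HZ arrays of pairs 1 to 6, against 6351, 9523, 10923, 11854, 7497 and 12907 on RZ arrays. HZ was lower in 4 pairs and higher in pairs 1 and 5, and the arrays of the 2 zones overlapped over most of their range. The log2 difference was -0.14 ± 0.16 (SE, adjusted p = 0.676), with a 95% interval of the HZ over RZ ratio from 0.709 to 1.16. That interval holds both a modest fall and a small rise, so no direction can be given, and whether ENPP1 and ANKH differ in their change was not tested.

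MGP, the mineral inhibitor, had the clearest separation of zones of the 9 genes at the brightest probe sets. At the brightest of its 4 probe sets the HZ arrays of pairs 1 to 6 had signals of 21349, 17556, 26008, 25223, 22150 and 21704, against 12217, 13232, 12228, 13656, 11414 and 16853 on RZ arrays. The lowest HZ array, that of pair 2, was above the highest RZ array, that of pair 6. This made it 1 of the 18 probe sets whose zones did not overlap, against 2.89% of all probe sets. The log2 difference was 0.75 ± 0.15 (SE, limma adjusted p = 0.0230), with 0.36 in pair 6 as the smallest and 1.09 in pair 3 as the largest.

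The MGP probe set stood at rank 27 of 24016 by mean signal, near the top of the measured range. Its call was lost without pair 1, 4 or 5 (adjusted p = 0.0720 to 0.0795) and kept without pair 2, 3 or 6. The difference was 0.61 for pairs 1 and 2 alone, against 0.82 for pairs 3 to 6. Without the pair block it passed too (adjusted p = 0.0156), since little of its variation lay between pairs.

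The other 3 MGP probe sets were far dimmer than this one, and brighter than 63.9%, 54.5% and 44.8% of all probe sets. The second brightest had signals of 89.1 to 325.9 in HZ and 146.3 to 188.2 in RZ, the third 77.3 to 211.9 in HZ and 75.0 to 128.3 in RZ, and the dimmest 73.0 to 128.9 in HZ and 26.4 to 140.2 in RZ. All 3 leaned the same way as the bright one, but the zones overlapped and none passed. Their differences were 0.35 ± 0.20, 0.39 ± 0.19 and 0.69 ± 0.21 (SE, adjusted p = 0.355, 0.275 and 0.0859), with HZ higher in 5, 4 and 5 of 6 pairs. With the median of the 4 probe sets as the value of the gene, MGP gave 0.39 ± 0.17 and did not pass (adjusted p = 0.181).

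**Figure D2:**
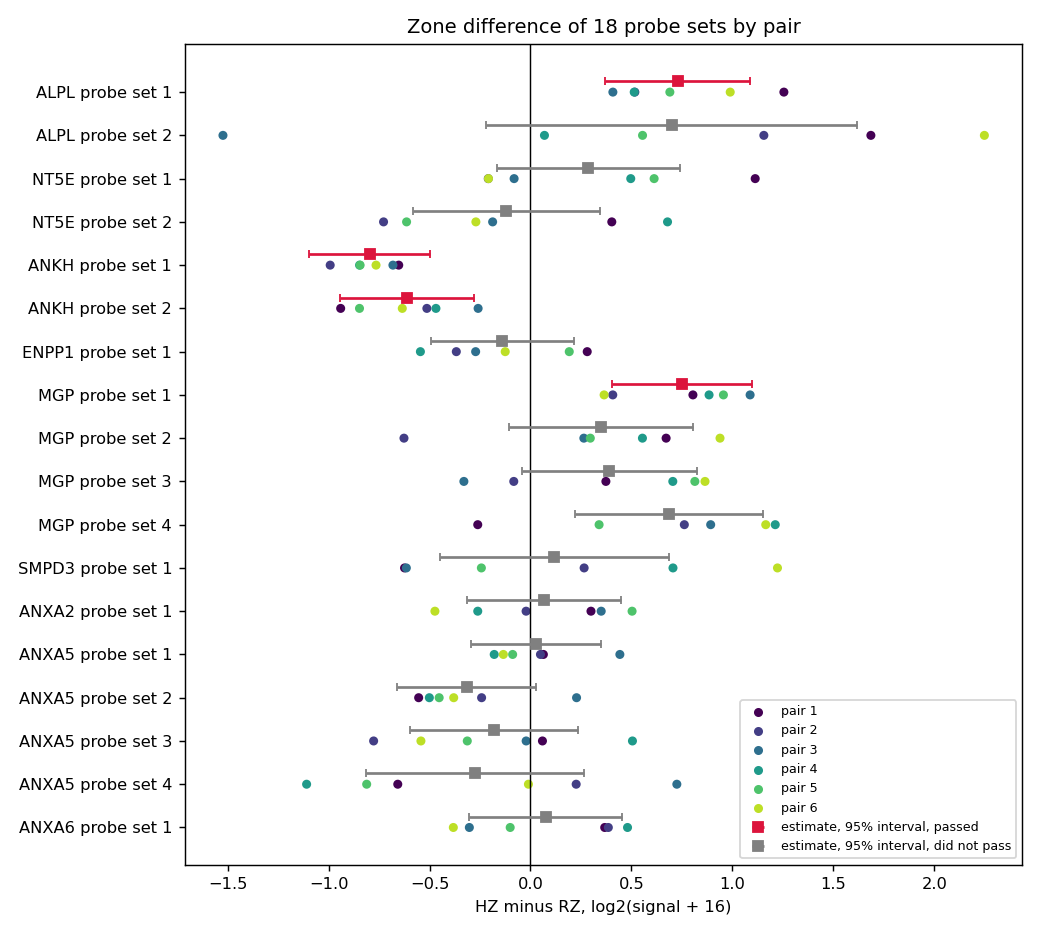
Differences between HZ and RZ in log2(signal + 16) for 18 probe sets, numbered by brightness within each gene, with a coloured point per pair and a square for the limma estimate with its 95% interval, red where it passed. The squares of ANKH, at -0.80 and -0.61, have all their points on the left of 0, and those of the brightest ALPL and MGP probe sets, at 0.73 and 0.75, have all their points on the right.

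SMPD3 encodes neutral sphingomyelinase 2, a membrane enzyme that releases ceramide and phosphocholine, and its loss in mice delays mineralisation of cartilage. Its only probe set had signals of 1260, 2396, 143, 241, 829 and 402 on HZ arrays of pairs 1 to 6, against 1949, 1990, 227, 142, 984 and 163 on RZ arrays. Both arrays of pairs 1, 2 and 5 were bright and both arrays of pairs 3, 4 and 6 dim, whatever the zone. HZ was higher in 3 pairs and lower in 3, and the difference of 0.12 ± 0.25 (SE, adjusted p = 0.843) did not pass.

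The spread of SMPD3 between pairs was large. Of its sum of squares over the 12 arrays 94.4% lay between pairs and 0.164% between zones. Over the 12008 probe sets brighter than the median, the median share between pairs was 53.6%, and 98.9% of them had a smaller share than SMPD3. The mean level was 2.56 higher (log2) in pairs 1 and 2 than in pairs 3 to 6.

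The share of variation between pairs also differed among the other genes. For ALPL it was 66.3%, beside 28.8% between zones, and for ANKH 58.7%, beside 40.5% between zones and 0.829% left over. The ALPL level was lower by 1.12 (log2) in pairs 1 and 2 than in pairs 3 to 6, with that of its dimmer probe set lower by 1.85. ENPP1 had 72.1% between pairs and 5.10% between zones. MGP was the reverse at its brightest probe set, with 80.9% between zones and 8.50% between pairs. Its 3 dimmer probe sets had 15.5% to 38.5% between zones and 40.1% to 53.9% between pairs. Without the pair in the model, ALPL and ANKH no longer passed (adjusted p = 0.271 and 0.152) at the same estimates.

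**Figure D3:**
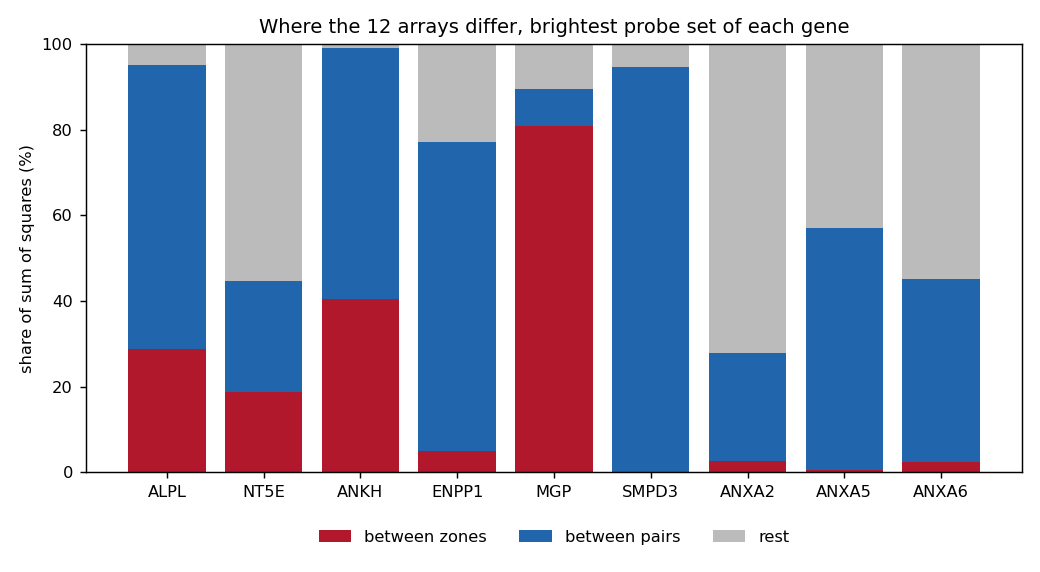
Share of the sum of squares of log2(signal + 16) over 12 arrays that lies between the 2 zones, between the 6 pairs and in the rest, for the brightest probe set of each gene. MGP is mostly between zones (80.9%), SMPD3 mostly between pairs (94.4%), and ANXA2 mostly in the rest (72.2%).

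The annexins, calcium-dependent membrane-binding proteins that are abundant in matrix vesicles, did not pass at any of 6 probe sets. ANXA2, with 1 probe set, had signals of 8484 to 11755 (median 9719) in HZ and 7393 to 11785 (median 9165) in RZ. The zones covered almost the same range and HZ was higher in 3 of 6 pairs. Its difference was 0.07 ± 0.17 (SE, adjusted p = 0.874), with a 95% interval of the ratio from 0.804 to 1.36.

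ANXA5, which binds phosphatidylserine, was read by 4 probe sets. The brightest had signals of 7320 to 10844 (median 8208) in HZ and 7784 to 9402 (median 8296) in RZ, with a difference of 0.03 ± 0.14 (SE, adjusted p = 0.950). Its 95% interval of the ratio, 0.814 to 1.27, spans a modest change in either direction. At the second brightest the HZ signals of pairs 1 to 6 were 2200, 2882, 4070, 2339, 2545 and 2744, against 3237, 3412, 3473, 3316, 3488 and 3577 in RZ.

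The RZ arrays of this ANXA5 probe set were nearly level, with an SD of 0.05 on the log2 scale against 0.31 for the HZ arrays. HZ was below RZ in 5 of 6 pairs and above it in pair 3, and the difference of -0.32 ± 0.15 (SE, adjusted p = 0.262) did not pass. In all 6 pairs the brightest probe set gave the higher difference of the 2, by 0.34 on average, a difference that was not tested. The remaining ANXA5 probe sets were dim, with HZ means of 69.7 and 23.9 and RZ means of 81.9 and 28.2, and gave -0.18 ± 0.19 and -0.27 ± 0.24.

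ANXA6, with 1 probe set, had signals of 183.1 to 270.3 (median 226.0) in HZ and 163.8 to 312.5 (median 209.4) in RZ. It was higher in HZ in 3 pairs and lower in 3, with no separation of the zones. The difference was 0.07 ± 0.17 (SE, adjusted p = 0.854), or 0.38 for pairs 1 and 2 alone, against -0.08 for pairs 3 to 6. A difference of the zone effect between these 2 sets of pairs was tested for each of the 18 probe sets and passed for 0 of them (limma with an interaction term, adjusted p = 0.999 for each; 0 of 18 had an unadjusted p under 0.05). Over all probe sets 0.00833% passed and 5.03% had an unadjusted p under 0.05.

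The genes side by side by pair show no pair in which ALPL, MGP or ANKH reversed at the brightest probe set. In pair 1 ALPL differed by 1.26, MGP by 0.80 and ANKH by -0.65. In pair 3 ALPL differed by 0.41, MGP by 1.09 and ANKH by -0.68. In pair 6 ALPL differed by 0.99, MGP by 0.36 and ANKH by -0.76. The pair with the largest ALPL difference was thus not that with the largest MGP difference. Of these 18 probe sets 4 kept 1 sign through the 6 pairs, against 14% of the whole array.

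Other genes that handle phosphate, pyrophosphate, vesicle lipids and mineral were taken from 4 lists of 100 genes, of which 66 were measured. In HZ 8 were higher, 3 were lower and 55 did not pass, with a median difference of 0.09. Over all named genes 4.17% were higher and 3.56% lower. The lists were chosen with earlier results of these data known, so setting their shares beside these is no test.

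In the list of phosphate transport and its regulation, which also holds phosphatases and relatives of ENPP1, 3 of 15 measured genes rose, 0 fell and 12 did not pass (median 0.23). ENPP4 and ENPP3, 2 of these relatives that also cleave nucleotides, were dim. Signals of ENPP4 were 38.1 to 199.0 (median 134.7) in HZ and 12.6 to 143.7 (median 22.3) in RZ, a log2 difference of 1.21 ± 0.26 (SE, adjusted p = 0.0269). ENPP3 rose by 0.95 ± 0.23 (adjusted p = 0.0412), with HZ higher in 6 of 6 pairs for both genes and overlapping zones. ENPP2 gave 0.12, ENPP5 0.16 and PHOSPHO2, a relative of PHOSPHO1, -0.01, none of which passed.

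ACP5, the tartrate-resistant acid phosphatase best known from osteoclasts, rose by 1.21 ± 0.29 (SE, adjusted p = 0.0390) at the brightest of 3 probe sets. The other ACP5 probe sets, at 0.79 and 0.49, did not pass (adjusted p = 0.0745 and 0.265). At the brightest one its signals were 935 to 3018 in HZ and 354 to 1387 in RZ, 0.55 apart (log2) in pairs 1 and 2 and 1.54 apart in pairs 3 to 6. The macrophage markers C1QA, C1QB, AIF1 and CSF1R and the osteoclast protease CTSK also rose, by 1.95, 1.64, 1.99, 1.03 and 1.46, and their part in the ACP5 result was not tested. The other macrophage markers, CD14 at -0.81 (HZ lower in 5 of 6 pairs) and CD68 at 0.14, did not pass, nor did the osteoclast markers MMP9 at 0.97 and ATP6V0D2 at 0.44. SLC20A1, the main phosphate importer of the list by signal, had 8934 to 15111 in HZ and 8172 to 10742 in RZ. It was higher in HZ in 6 of 6 pairs, yet at 0.34 ± 0.14 it did not pass (adjusted p = 0.201). ACP1, a cytosolic phosphatase, gave 0.08 ± 0.15.

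Among 18 measured genes of pyrophosphate and extracellular nucleotides, 0 rose, 1 fell and 17 did not pass (median -0.08). SLC29A1, the equilibrative transporter that carries adenosine across the membrane, fell by 0.99 ± 0.16 (SE, adjusted p = 0.00992). Its signals were 1621 to 5016 (median 2713) in HZ and 2908 to 9988 (median 5364) in RZ, with HZ lower in 6 of 6 pairs and overlapping zones. The pyrophosphatase PPA1, which splits pyrophosphate inside the cell, gave -0.43 ± 0.24 (adjusted p = 0.339) and was lower in 5 of 6 pairs. NT5C2, a cytosolic nucleotidase, gave 0.21 ± 0.16 (adjusted p = 0.511).

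In the list of vesicle lipids, choline and other annexins, which also holds CA2 and CAPG, 3 of 17 measured genes rose. In it 0 fell and 14 did not pass (median 0.20). The zones of the 3 that rose did not overlap. They were picked by passing, so the 2.89% of all probe sets without overlap is not a like background for them. CHPT1, the last enzyme of phosphatidylcholine synthesis, had signals of 492 to 757 (median 560) in HZ and 201 to 359 (median 316) in RZ. It rose by 0.98 ± 0.15 (SE, adjusted p = 0.00784), in 6 of 6 pairs. CA2, a carbonic anhydrase that sets pH, had 12429 to 19263 in HZ and 8287 to 11131 in RZ and rose by 0.78 ± 0.14 (adjusted p = 0.0142).

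CAPG, an actin-capping protein also made by macrophages, rose by 1.13 ± 0.22 (SE, adjusted p = 0.0182), with signals of 510 to 905 in HZ and 176 to 505 in RZ. The part of macrophages and osteoclasts in the CA2 and CAPG results, whose markers moved unevenly as given above, was not tested. None of the 6 other annexins measured passed. ANXA1, bright at 8610 ± 2809 in HZ and 8436 ± 1141 in RZ (SD, n = 6), gave -0.01, ANXA4 -0.05, ANXA11 0.20 and ANXA3, a dim one, 0.74 ± 0.23 (adjusted p = 0.0959). S100A10, the partner of ANXA2, gave 0.15 ± 0.15.

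The list of mineral inhibitors, vitamin K cycle and mineral-binding proteins had 16 measured genes, with 2 higher, 2 lower and 12 that did not pass (median -0.15). DMP1, a mineral-binding phosphoprotein, rose by 1.34 ± 0.33 (SE, adjusted p = 0.0417), although pair 2 ran the other way at -0.46. It is also a marker of bone-forming cells, whose part was not tested and whose other 4 measured markers gave -1.12 to -0.56 and did not pass. FETUB, a secreted relative of the mineral inhibitor fetuin-A, had signals of 43.2 to 145.5 in HZ and 12.6 to 80.3 in RZ and rose by 1.16 ± 0.27 (adjusted p = 0.0366), in 5 of 6 pairs. FBN1, a microfibril protein, fell by 1.46 ± 0.18 and PTHLH, a secreted brake on chondrocyte maturation, by 0.75 ± 0.16 (adjusted p = 0.00349 and 0.0275). PTHLH was also among the reserve zone markers by which the zones were checked, so its fall here is the same measurement.

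GGCX and VKORC1, the vitamin K enzymes on which MGP carboxylation depends, gave 0.08 ± 0.15 and -0.17 ± 0.20 (SE) and did not pass (adjusted p = 0.807 and 0.678). SPARC and SPP1 (osteopontin), matrix proteins that bind mineral and the 2 brightest of the list that did not pass, gave 0.12 ± 0.16 and 0.31 ± 0.14. For some genes the probe sets differed. Bone sialoprotein (IBSP) differed by 0.14 at the brighter, with mean signals of 11710 in HZ and 10723 in RZ. The other IBSP probe set, also bright at 13565 in HZ and 2981 in RZ, rose by 2.20 ± 0.21 (SE, adjusted p = 0.00125). AHSG, fetuin-A itself, gave -0.21 at the brightest of 8, while 2 dimmer ones rose, by 1.41 and 1.13 (adjusted p = 0.0244 and 0.0124).

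**Figure D4:**
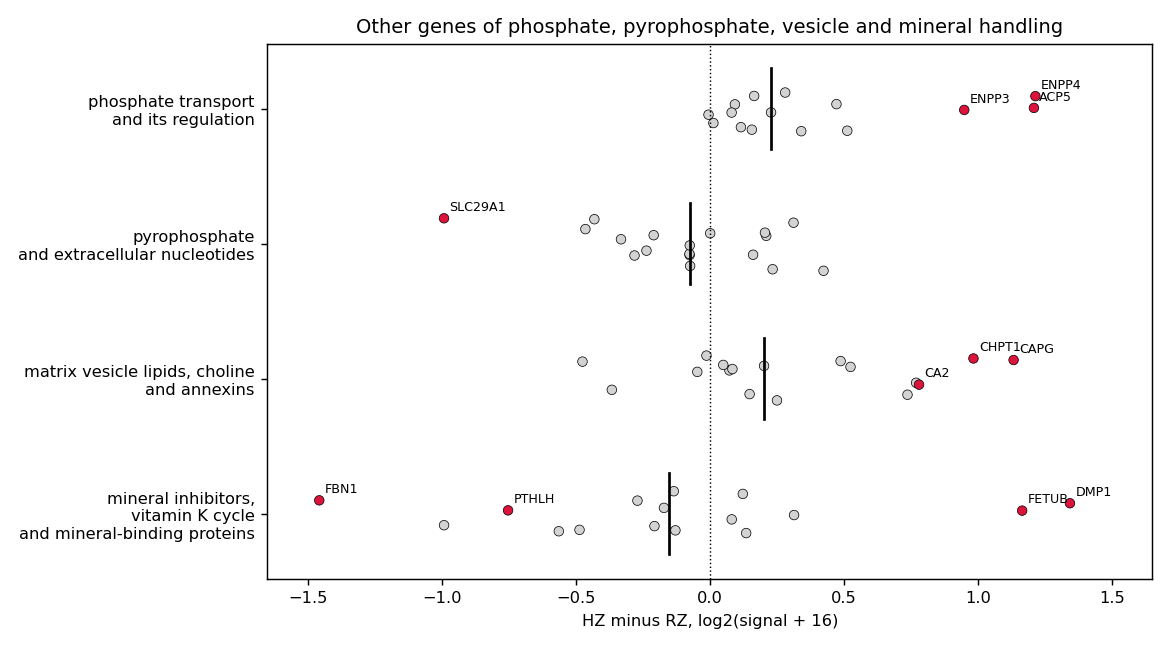
Differences between HZ and RZ in log2(signal + 16) for the measured genes of 4 lists, red and named where they passed, with a vertical bar at each list's median and points spread vertically for legibility. The phosphate list has its median at 0.23 and that of mineral inhibitors and mineral-binding proteins at -0.15, and the largest fall is that of FBN1 at -1.46.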

How the data were processed

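Total RNA was labelled with biotin and measured on 12 one-colour arrays, 6 HZ and 6 RZ, grouped and paired by the zone and number in their titles. What the authors deposited is a linear ratio for each of 24128 probe sets on every array (112 of these are controls). Software, summary and normalization behind these ratios were not given in the sources used here. Read from the values, the deposited ratio is an array-scaled signal over the probe set's median for 21901 probe sets, and over a common divisor for 2227 dim ones. The lowest value is 0.01, reached 49 times.

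Signals were recovered from the whole-number steps of the ratios, the steps of the dim probe sets giving each array's unit (solved for all 24128 probe sets, with values within 0.0773 of a step of whole numbers). The authors' scaling made the array medians nearly equal. Their level of 96.7 was set here, as the geometric mean of the unscaled array medians. That 1 step is 0.1 signal units is an assumption, which together with this level sets the weight of the added 16.

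Tests used log2(signal + 16), limma 3.58.1 in R 4.3.3 (lmFit, eBayes), the model holding zone and a fixed term per pair, and Benjamini-Hochberg adjustment over 24016 probe sets at a threshold of 0.05. Folds are on that scale and understate changes of dim probe sets. The fit was tested on simulated data. Deviations from the zone mean correlated within every number (r = 0.124 to 0.447 over 6 pairs, although the HZ array of pair 3, with the lowest r, correlated best with the RZ array of pair 6), and the series description states the pairing. Gene symbols came from the platform annotation (13292 probe sets with 1 symbol, 86 with several, the others unnamed here), and 13263 matched RefSeq's ARS-UCD2.0 gene table, which was used for names only. A gene's brightest probe set stood for it. Named beyond the members are, of each list, the genes that passed (up to 8) and the 2 brightest that did not; the further genes named (ENPP2, ENPP5, PHOSPHO2, ANXA3, ANXA4, ANXA11, GGCX, VKORC1, IBSP and AHSG) were chosen after their values were seen. The members, lists and tests were chosen with earlier results of these data known. Alternatives are given in the closing section.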

Additional observations from a re-analysis of the deposited data

How the results depend on the processing

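Directions of ALPL, ANKH and MGP held in every alternative run, while their calls often did not. Without the replicate block (pairing ignored) the estimates stayed at 0.73 for ALPL and -0.80 for ANKH and both lost their call, leaving 1 member gene higher and 0 lower. All probe sets then gave 505 higher and 326 lower, against 782 and 712 as reported, and the wider lists 5 and 1. With 1 added in place of 16, and with log2 of the deposited ratio, ALPL (0.73 in both) and MGP (0.75 in both) missed the threshold. That left 0 member genes higher, 2 wider list genes higher, and 368 higher and 215 lower, or 315 and 163, over all probe sets. With 64 added 1120 probe sets were lower, and with only probe sets above the median level 1374. ALPL, ANKH and MGP passed with 64 added (limma adjusted p = 0.0107, 0.00189 and 0.00756). They also passed among probe sets above the median level (limma adjusted p = 0.00443, 0.00108 and 0.00319). Higher calls made up 52.3% of all calls in the reported fit, 47.6% with 64 added, 63.1% with 1 added and 65.9% with the deposited ratio. Quantile normalization left ALPL at 0.73 (adjusted p = 0.0509) and 1 member gene higher. With the median of a gene's probe sets, ALPL was 0.71 and MGP 0.39, neither passing, 0 member genes were higher, and ANXA5 turned to -0.25.

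In pairs 1 and 2, alone or in a fit with an interaction term, ALPL was 0.89, ANKH -0.82, MGP 0.61 and SMPD3 -0.18, and 0 member and 0 wider list genes passed in either direction. All probe sets gave 0 passing alone (2931 with an unadjusted p under 0.05) and 5 higher and 13 lower in the joint fit. In pairs 3 to 6 ALPL was 0.65, ANKH -0.78, MGP 0.82 and ANXA6 -0.076, with 0 member genes passing, 258 higher and 78 lower alone (2 wider list genes higher), and 301 and 103 in the joint fit (1 higher). Leaving out pairs 3 and 4, whose HZ arrays had the highest 3′ to 5′ log2 ratios of GAPDH (1.46 and 1.21), was chosen after the data were seen. It gave 0.86 for ALPL, -0.81 for ANKH, 0.63 for MGP and -0.027 for ANXA5, 0 member genes passing, 91 higher and 48 lower in all, and 1 wider list gene in each direction.

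With 1 pair left out, ALPL ranged from 0.62 to 0.79 and MGP from 0.68 to 0.83. The dimmer ANKH probe set ranged from -0.68 to -0.54, and the ANXA2, ANXA5, ANXA6 and SMPD3 estimates crossed 0, from -0.021 to 0.17, -0.058 to 0.067, -0.0065 to 0.17 and -0.10 to 0.27. The dimmer NT5E probe set ranged from -0.28 to 0.002 (0.00197 without pair 2), and the dimmest of MGP passed without pair 1 at 0.87. Member genes higher numbered 0 to 2, wider list genes higher 1 to 6, and all probe sets 334 to 650 higher and 223 to 895 lower. Of 312 alternative values, 255 kept direction and side of the threshold, 45 lost the call, 1 gained it and 11 turned sign, all 11 small ones that had not passed. Causes were not tested. Dim probe sets, such as the dimmest of MGP and 2 of ANXA5, limit what these arrays can show.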
